A study of Mus musculus with 6 samples.

Results

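The TNF receptor superfamily was examined in MLE12 cells through 8 receptor genes, *Tnfrsf1a*, *Fas*, *Tnfrsf10b*, *Tnfrsf21*, *Tnfrsf1b*, *Tnfrsf12a*, *Ltbr* and *Cd40*, and the adaptor gene *Tradd*. These 9 genes were chosen by name from the 54532 mouse genes of the deposited table, and each name matched 1 gene. The study asked how mitochondrial citrate handling affects lung epithelial cells, and its RNA-seq compared 3 samples of MLE12 cells infected with a control lentivirus carrying an empty vector (Ctrl shRNA) with 3 samples infected at once with lentiviruses for Idh3α shRNA and Slc25a1 shRNA (knockdown below). MLE12 is an immortalized line of mouse lung epithelium, made from a lung tumour of mice that carried the SV40 large T antigen under the promoter of surfactant protein C, and the labels give the strain as C57BL/6J for all samples. The dose of virus was an MOI (infectious particles per cell) of 50 for each knockdown virus and 50 for the control virus, and the labels do not say whether the total dose was equal in both groups. In both groups fresh medium was given at 16 h and total RNA was taken from cells grown for another 80 h. The labels do not say that the samples of a group came from separate cultures, so the p-values below measure the spread between these samples, which may be technical.

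Receptors of this family bind trimeric ligands of the TNF superfamily at the cell surface. Those with a death domain in the cytoplasmic tail, such as TNFR1 (*Tnfrsf1a*), Fas and the TRAIL receptor (*Tnfrsf10b*), bind the adaptors TRADD or FADD, and can direct a cell either to NF-κB activity or to caspase-8-driven apoptosis and, where caspase-8 is blocked, to necroptosis. Receptors without a death domain, such as TNFR2 (*Tnfrsf1b*), Fn14 (*Tnfrsf12a*), the lymphotoxin β receptor (*Ltbr*) and CD40, bind TRAF proteins instead. In lung epithelium these receptors take part in responses to injury and infection.

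The total count was 27273502 to 28535653 reads per sample. Ctrl shRNA replicate 2 stood apart from the other 5 libraries, with 16681 genes detected against 19902 to 23147 and with 6.49% of its counts on mitochondrially encoded genes against 1.57% to 1.80%. For this reason changes of the members are given with all samples and again without this library. Of 12 lung epithelial markers, 8 had enough counts to be tested with all samples, led per length by *Krt19*, *Krt8* and *Nkx2-1*, whereas *Sftpd* had 0 counts and *Sftpa1* had 2 counts over all samples. *Sftpc*, the surfactant protein C gene, in CPM (counts scaled to the TMM-normalized library size), measured 44.1, 97.3 and 50.9 CPM in Ctrl shRNA cells and 35.9, 28.5 and 27.2 CPM after knockdown (log2 fold change -1.07 with adjusted p = 0.315 over all samples, and -0.65 with adjusted p = 0.0438 when Ctrl shRNA replicate 2 was left out, by edgeR's quasi-likelihood test, Benjamini-Hochberg). Of the 8 markers tested with all samples, *Sftpc*, *Nkx2-1* and *Epcam* were lower in every knockdown sample than in every control (all genes, 10.7%). *Cdh1* was higher in every knockdown sample (all genes, 14.7%). With all samples edgeR called 0 of the 8 (2 lower and 0 higher at an unadjusted p under 0.05, all genes 6.65% and 7.47%). Without Ctrl shRNA replicate 2 it called *Sftpc* alone, where 0.675% of all genes were called lower. DESeq2 called 0 with all samples, and *Sftpc* and *Nkx2-1* lower without Ctrl shRNA replicate 2 (all genes, 3.35% lower). Limma with sample quality weights over all samples also called *Sftpc* and *Nkx2-1* lower (all genes, 6.34% lower). Of 8 leukocyte markers only *Cd68* was tested with all samples, at 1.65, 1.92 and 1.78 CPM in Ctrl shRNA cells and 2.52, 2.34 and 2.73 CPM after knockdown (adjusted p = 0.352, and 0.204 without Ctrl shRNA replicate 2, edgeR, Benjamini-Hochberg). *Lyz2* and *Cd3e* followed with 14 and 40 counts over all samples. The leukocyte markers *Ptprc*, *Adgre1* and *Itgam* had 0 counts in every sample, and the whole list summed to 1.92 to 2.58 CPM in the controls and 2.57 to 3.06 CPM in the knockdown samples. The 7 fibroblast and endothelial markers summed to 346 to 1233 CPM in the controls and 317 to 346 CPM in the knockdown samples, and the top of the control range was Ctrl shRNA replicate 2, where *Dcn* alone had 1211 CPM. *Dcn* was also lower in every knockdown sample (297 to 318 CPM) than in every control (320 to 1211 CPM), with adjusted p = 0.379, and 0.284 without Ctrl shRNA replicate 2 (edgeR, Benjamini-Hochberg). Of the same list *Col1a1* overlapped between the groups (19.7 to 22.7 and 16.5 to 22.8 CPM), and *Pdgfra* was higher in every knockdown sample, at 3.43 to 3.91 against 2.23 to 2.68 CPM (adjusted p = 0.312, and 0.161 without Ctrl shRNA replicate 2, edgeR, Benjamini-Hochberg). The part of these markers in the results below was not tested. The targeted genes were lower in every knockdown sample than in every control, *Idh3a* at 55.5 to 58.5 against 79.8 to 137 CPM and *Slc25a1* at 63.0 to 69.6 against 98.7 to 108 CPM. With all samples neither passed edgeR's test (adjusted p = 0.254 for *Idh3a* and 0.104 for *Slc25a1*, Benjamini-Hochberg). Without Ctrl shRNA replicate 2 they were at 0.66 and 0.63 times the control level (adjusted p = 0.0142 and 0.00649, same test).

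Levels of the members in control cells were compared per length, as RPKM, the count divided by the gene's length and by the TMM-normalized library size. *Ltbr* had 82.2 ± 10.03 RPKM (SD, n = 3), *Tnfrsf12a* 82.2 ± 7.36 RPKM and *Tnfrsf1a* 78.5 ± 2.50 RPKM. The control ranges of *Ltbr* and *Tnfrsf12a* overlapped, as did those of *Tnfrsf12a* and *Tnfrsf1a*, so these 3 could not be ordered beyond their spread. *Tnfrsf21* followed at 44.3 ± 3.81 RPKM, with a range of 40.8 to 48.4 that did not overlap that of *Tnfrsf1a* (75.6 to 80.2). *Tnfrsf1b* had 39.0 ± 3.55 RPKM, with a range of 36.2 to 43.0 that overlapped that of *Tnfrsf21*. *Tradd*, the only adaptor of the set, had 22.0 ± 2.25 RPKM and stood apart from its neighbours in this order. At the low end *Fas* (9.07 ± 5.42 RPKM) and *Tnfrsf10b* (6.25 ± 0.269 RPKM) overlapped, and *Cd40* had 0 counts in all controls. Ranked among all genes tested by level per length, *Tnfrsf1b* lay at percentiles 87.2 to 92.2 in the controls, *Tnfrsf10b* at 52.6 to 54.8, and *Fas* at 51.4, 72.9 and 54.0 in Ctrl shRNA replicates 1, 2 and 3. The mRNA of TNFR1 was thus about as abundant as those of the lymphotoxin β receptor and Fn14, and higher than that of TNFR2 in every control.

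**Figure D1:**
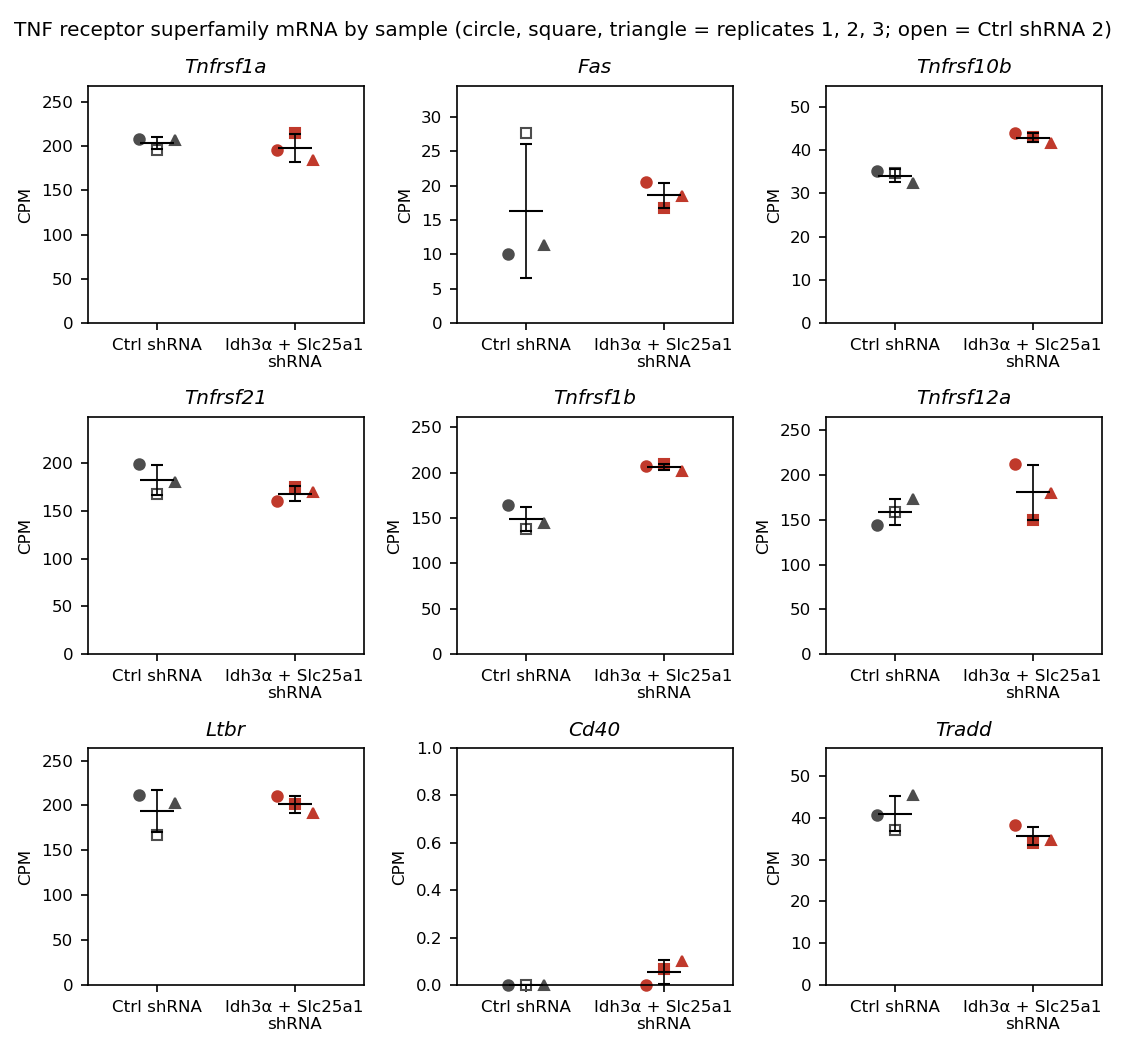
Level of each of the 9 genes in CPM (y axis, linear, its own scale per panel) in every sample of the Ctrl shRNA and knockdown groups. Points are samples, the open point is Ctrl shRNA replicate 2, and bars give the mean and SD (n = 3). *Tnfrsf1b* and *Tnfrsf10b* do not overlap between the groups, and the open point of *Fas* at 27.6 CPM lies above all knockdown samples.

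The comparison of knockdown with control asks which receptor mRNAs differ when Idh3α and Slc25a1 are both reduced. The mRNAs of TNFR2 (*Tnfrsf1b*) and of the TRAIL receptor (*Tnfrsf10b*) were above the controls in all 3 knockdown samples, at 1.39 and 1.26 times the control level. *Fas* was above the controls only once Ctrl shRNA replicate 2 was set aside, at 1.73 times their level. The mRNAs of TNFR1, Fn14, the lymphotoxin β receptor, death receptor 6 and TRADD overlapped between the groups, and CD40 mRNA was near undetected. Of the 9 genes, 8 passed the count filter, and *Cd40* did not. With all 6 samples, edgeR with Benjamini-Hochberg adjustment over 15307 genes called 0 members higher and 0 lower, where 0.0588% of all genes tested were called higher and 0.00653% lower. At an unadjusted p under 0.05, 2 members were higher and 0 were lower (all genes, 7.47% and 6.65%). DESeq2 called 2 members higher (*Tnfrsf1b* and *Tnfrsf10b*) and 0 lower (all genes, 2.20% and 1.60%), limma on log2(FPKM + 1) called 0 (all genes, 0.0664% and 0.0249%), and limma with sample quality weights called 3 higher (*Tnfrsf1b*, *Tnfrsf10b* and *Fas*) and 1 lower (*Tradd*), in a fit that called 8.67% of all genes higher and 6.34% lower. Without Ctrl shRNA replicate 2, edgeR called 2 members higher, *Fas* and *Tnfrsf1b*, and 0 lower, where 1.11% of 15709 genes were called higher and 0.675% lower. In that fit 3 members were higher and 2 were lower at an unadjusted p under 0.05 (all genes, 9.54% and 10.3%), and DESeq2 called 3 higher, *Tnfrsf10b* being the third, and 0 lower (all genes, 4.74% and 3.35%). The median log2 fold change of the 8 tested members was 0.12 with all samples and 0.06 without Ctrl shRNA replicate 2, beside -0.01 and -0.02 over all genes tested. In samples that do not overlap between groups, 2 members were higher (*Tnfrsf1b* and *Tnfrsf10b*, all genes 14.7%) and 0 were lower (all genes, 10.7%), and without Ctrl shRNA replicate 2 there were 3 higher, with *Fas* added (all genes, 19.0%), and 2 lower, *Tnfrsf21* and *Tradd* (all genes, 18.8%). Because these are bulk samples, fewer cells with an mRNA and less of that mRNA per cell cannot be told apart.

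**Figure D2:**
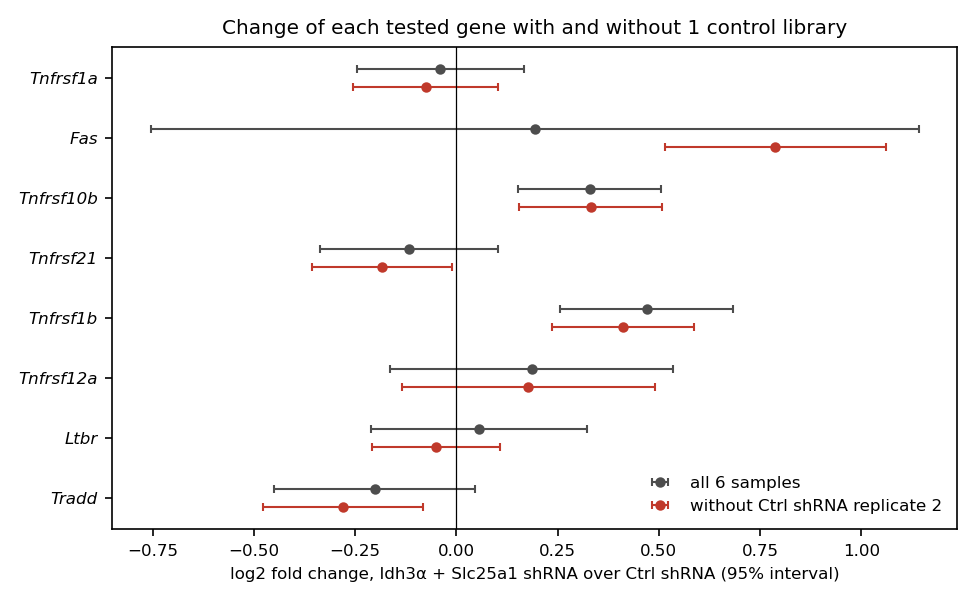
Log2 fold change of knockdown over Ctrl shRNA (x axis) with 95% confidence intervals from edgeR for the 8 tested genes, with all 6 samples and without Ctrl shRNA replicate 2. The interval of *Fas* runs from -0.75 to 1.14 with all samples and from 0.51 to 1.06 without that library, while the estimates of the other genes move less.

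Among the receptors with a death domain, *Fas* (ENSMUSG00000024778, chromosome 19 of GRCm38 from 34290659 to 34327770, plus strand) depended most on one library. Fas is the receptor of Fas ligand and recruits FADD and caspase-8. The gene contains the small gene *Gm27818* on the same strand, which had 3 counts over all samples, and no other member overlaps a counted gene. *Fas* measured 10.1, 27.6 and 11.3 CPM in Ctrl shRNA replicates 1, 2 and 3 (312, 545 and 325 counts) and 20.5, 16.8 and 18.5 CPM after knockdown (609, 509 and 550 counts). The knockdown samples lay close together, above controls 1 and 3 and below control 2. Control 2 was 2.58 times the mean of the other controls. With all samples the log2 fold change was 0.19 (standard error 0.39, 95% confidence interval -0.75 to 1.14, adjusted p = 0.821, edgeR with Benjamini-Hochberg adjustment). When Ctrl shRNA replicate 2 was left out, *Fas* rose 1.73-fold (95% confidence interval 1.43 to 2.09), or 0.79 on the log2 scale (standard error 0.12, adjusted p = 0.0198, same edgeR test). On simulated data with the spread of these 5 libraries the share of false calls by edgeR was above the threshold, so this adjusted p may be too small. The direction itself rested on single controls, since the log2 fold change was -0.05 without Ctrl shRNA replicate 1 and -0.03 without Ctrl shRNA replicate 3. In Ctrl shRNA replicate 2 the mitochondrially encoded share of counts, *Dcn* and *Sftpc* were also at their highest of the 6 samples, and their part in the value of *Fas* was not tested.

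The upstream sequences of the called genes are shown for the motifs they hold, with RefSeq promoters of GRCm38.p6 available for 6 of the 9 genes. A script searched both strands of the 250 bases before each start for a κB site (GGG, any pair of bases, then TTTCC, bound by NF-κB), an AP-1 site (TGAGTCA) and a GC box (GGGCGG, bound by Sp1), and matches are in capitals. Matches are descriptions of these letters and not evidence of binding. Over the same window of 32851 RefSeq promoters, 1.41% held the κB motif, 4.46% the AP-1 motif and 32.7% the GC box. The sequence before *Fas* (chr19:34290409-34290658, plus strand) held 1 AP-1 motif, 211 to 205 bases before the start, and 1 GC box, 47 to 42 bases before it, and no κB motif.
Fas: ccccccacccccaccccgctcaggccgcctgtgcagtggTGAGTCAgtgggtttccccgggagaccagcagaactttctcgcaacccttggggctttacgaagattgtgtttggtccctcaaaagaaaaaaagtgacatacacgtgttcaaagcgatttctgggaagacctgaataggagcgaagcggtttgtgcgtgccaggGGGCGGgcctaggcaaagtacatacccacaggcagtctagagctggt

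*Tnfrsf10b* (ENSMUSG00000022074, chromosome 14 from 69767472 to 69784411, plus strand) encodes the mouse receptor of the death ligand TRAIL. It measured 35.2, 34.7 and 32.4 CPM in Ctrl shRNA cells and 43.9, 42.9 and 41.7 CPM after knockdown. Every knockdown sample was above every control, Ctrl shRNA replicate 2 lay among the other controls, and the means were 34.1 ± 1.47 and 42.8 ± 1.06 CPM (SD, n = 3 each). The log2 fold change was 0.33 both with all samples (standard error 0.07, adjusted p = 0.245) and without Ctrl shRNA replicate 2 (standard error 0.08, adjusted p = 0.0813), and neither passed edgeR's test with Benjamini-Hochberg adjustment. DESeq2 gave adjusted p = 0.0230 and 0.0106 (Benjamini-Hochberg), so the call for this gene depended on the tool. On simulated data the share of false calls by DESeq2 was above the threshold in both sets of samples. Both of these adjusted p may thus be too small.

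*Tnfrsf1a* (ENSMUSG00000030341, chromosome 6 from 125349362 to 125362484, plus strand) encodes TNFR1, the main signalling receptor of soluble TNF. Its levels were 208, 196 and 207 CPM in Ctrl shRNA cells and 195, 214 and 184 CPM after knockdown. The groups overlapped, and the highest and the lowest value were both in knockdown samples. The log2 fold change was -0.04 with all samples (95% confidence interval -0.25 to 0.17, adjusted p = 0.834, edgeR with Benjamini-Hochberg adjustment) and -0.08 without Ctrl shRNA replicate 2 (interval -0.25 to 0.10), and its sign turned to 0.13 with library size only, where the median of all genes moved to 0.16. The upper bound of 0.17 in the first of these intervals is below the log2 fold change of *Tnfrsf1b* given below.

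*Tnfrsf21* (ENSMUSG00000023915, chromosome 17 from 43016555 to 43089189, plus strand) encodes death receptor 6, studied mainly in neurons and lymphocytes. It measured 199, 167 and 180.5 CPM in Ctrl shRNA cells and 160, 175 and 169.8 CPM after knockdown. Ctrl shRNA replicate 2 was the lowest control and fell within the knockdown range, while controls 1 and 3 lay above all knockdown samples. The log2 fold change was -0.12 with all samples (adjusted p = 0.521, turning to 0.042 with library size only) and -0.18 without that library (95% confidence interval -0.36 to -0.01, adjusted p = 0.228), both from edgeR with Benjamini-Hochberg adjustment.

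Among the receptors without a death domain, *Tnfrsf1b* (ENSMUSG00000028599, chromosome 4 from 145213463 to 145246870, minus strand) differed most between the groups. It encodes TNFR2, which responds best to membrane-bound TNF and binds TRAF2. *Tnfrsf1b* measured 164, 138 and 144 CPM in Ctrl shRNA cells (5079, 2733 and 4127 counts) and 207.5, 209 and 202 CPM after knockdown (6175, 6341 and 5986 counts). The knockdown samples all lay above the controls, and the gap between the groups was wider than the range within either. Its mean was 149 ± 13.5 CPM in the controls and 206 ± 3.78 CPM in the knockdown samples (SD, n = 3 each). With all samples the ratio was 1.39 (95% confidence interval 1.19 to 1.61), or 0.47 on the log2 scale (standard error 0.09, adjusted p = 0.180, edgeR with Benjamini-Hochberg adjustment). With Ctrl shRNA replicate 2 left out it rose 1.33-fold (95% confidence interval 1.18 to 1.501), or 0.41 on the log2 scale (standard error 0.08, adjusted p = 0.0403, same test), a fit whose adjusted p may be too small, as for *Fas*. The size of the difference was therefore smaller without that library, and the adjusted p was lower. DESeq2 called the gene in both sets of samples (adjusted p = 0.00185 and 6.85e-05, Benjamini-Hochberg), values that may also be too small, as for *Tnfrsf10b*. Limma with sample quality weights, in which Ctrl shRNA replicate 2 had a weight of 0.101, gave a log2 fold change of 0.49 (adjusted p = 0.00289, Benjamini-Hochberg). When one of the other 5 libraries was left out instead, edgeR's adjusted p (Benjamini-Hochberg) was 0.165 to 0.675 at log2 fold changes of 0.43 to 0.55. The 250 bases before its start (chr4:145246871-145247120, minus strand) held 2 GC boxes, read as CCGCCC on the strand shown, 67 to 62 and 57 to 52 bases before the start, and neither a κB nor an AP-1 motif.
Tnfrsf1b: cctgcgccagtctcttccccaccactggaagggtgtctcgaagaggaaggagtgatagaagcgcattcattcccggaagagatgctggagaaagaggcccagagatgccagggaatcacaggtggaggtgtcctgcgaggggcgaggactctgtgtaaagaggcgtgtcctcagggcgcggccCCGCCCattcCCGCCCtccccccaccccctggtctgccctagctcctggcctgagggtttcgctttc

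*Tnfrsf12a* (ENSMUSG00000023905, chromosome 17 from 23675445 to 23677468, minus strand) encodes Fn14, the receptor of TWEAK, and is known to be induced in injured tissue. It measured 144, 159 and 173 CPM in Ctrl shRNA cells and 212, 149.7 and 180.2 CPM after knockdown. The spread was wider among the knockdown samples (SD 31.2 CPM) than among the controls (SD 14.2 CPM), and the groups overlapped through knockdown replicate 2. The log2 fold change was 0.19 with all samples (95% confidence interval -0.16 to 0.54, adjusted p = 0.520, edgeR with Benjamini-Hochberg adjustment) and 0.18 without Ctrl shRNA replicate 2. It was 0.058 without knockdown replicate 1 and 0.31 without knockdown replicate 2.

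*Ltbr* (ENSMUSG00000030339, chromosome 6 from 125306571 to 125313885, minus strand) encodes the lymphotoxin β receptor, which drives the noncanonical NF-κB pathway. It measured 211, 167 and 203 CPM in Ctrl shRNA cells and 210.5, 202 and 191 CPM after knockdown. Ctrl shRNA replicate 2 was the lowest of the 6 and the other 5 overlapped. The sign of its log2 fold change turned with that library, from 0.06 with all samples (95% confidence interval -0.21 to 0.32, adjusted p = 0.814) to -0.05 without it (interval -0.21 to 0.11, adjusted p = 0.729), both from edgeR with Benjamini-Hochberg adjustment.

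*Cd40* (ENSMUSG00000017652, chromosome 2 from 165055627 to 165072948, plus strand), a costimulatory receptor of B cells and antigen-presenting cells, was close to undetected. It had 0 counts in each control and 0, 2 and 3 counts in knockdown replicates 1, 2 and 3. A count of 0 allows up to 0.0969, 0.152 and 0.105 CPM in Ctrl shRNA replicates 1, 2 and 3, for counting error only, so a difference was not detectable at this depth and no fold change is given.

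*Tradd* (ENSMUSG00000031887, chromosome 8 from 105258286 to 105264609, minus strand) encodes the adaptor that binds the death domain of TNFR1 and recruits RIPK1 and TRAF2. It measured 40.6, 37.0 and 45.4 CPM in Ctrl shRNA cells and 38.2, 34.1 and 34.7 CPM after knockdown. The groups overlapped because Ctrl shRNA replicate 2 was below knockdown replicate 1, and without that control they did not. The log2 fold change was -0.20 with all samples (95% confidence interval -0.45 to 0.05, adjusted p = 0.382) and -0.28 without Ctrl shRNA replicate 2 (interval -0.48 to -0.08, adjusted p = 0.143), both from edgeR with Benjamini-Hochberg adjustment. Limma with sample quality weights gave -0.29 with adjusted p = 0.0360 (Benjamini-Hochberg), and of the fits run only this one called the adaptor lower.

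Because a ratio within one library does not depend on the scaling between libraries, each receptor was also expressed as its share of the summed counts per kilobase of the 8 receptors. *Tnfrsf1b* took 12.3%, 11.1% and 10.8% of the sum in the controls and 14.0%, 15.2% and 14.8% in the knockdown samples. Its mean share was 11.4% ± 0.830 in the controls and 14.7% ± 0.583 in the knockdown samples (SD, n = 3 each), with no overlap. *Tnfrsf10b* took 1.70% to 1.94% in the controls and 2.08% to 2.18% in the knockdown samples, also with no overlap. The share of *Tnfrsf21* was lower in every knockdown sample, at 10.05% to 11.8% against 12.4% to 13.9%. The sum itself was higher in every knockdown sample, at 358 to 387 RPKM against 328 to 349 RPKM, and the CPM of *Tnfrsf21* overlapped between the groups. For these 3 receptors the two-sided exact permutation test gave p = 0.1, the smallest that 3 samples against 3 allow, and over the 8 receptors compared none could pass 0.05. *Fas* took 1.61%, 4.68% and 1.80% in the controls and 2.58% to 2.93% in the knockdown samples (exact permutation p = 1.0), with Ctrl shRNA replicate 2 again the highest. The shares of *Tnfrsf1a* (23.0% ± 0.136 and 20.8% ± 1.91, exact permutation p = 0.2), *Ltbr* (24.0% ± 2.15 and 23.2% ± 0.535, exact p = 0.6) and *Tnfrsf12a* (24.1% ± 2.27 and 25.3% ± 3.49, exact p = 0.5) overlapped between the groups (control and knockdown means, SD, n = 3).

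The order of TNFR2 and death receptor 6 turned between the groups. *Tnfrsf21* ranked above *Tnfrsf1b* per length in each of the 3 controls, and *Tnfrsf1b* ranked above *Tnfrsf21* in each of the 3 knockdown samples, at 52.9 to 54.7 against 38.9 to 42.5 RPKM. The per-length ratio of the 2 TNF receptors, *Tnfrsf1b* over *Tnfrsf1a*, chosen after its values were seen, was 0.536, 0.479 and 0.473 in the controls and 0.721, 0.661 and 0.744 in the knockdown samples. TNFR1 mRNA was thus the more abundant of the pair in all 6 samples, and the ratio was higher in every knockdown sample than in every control (0.496 ± 0.0348 and 0.709 ± 0.0427, SD, n = 3 each, two-sided exact permutation p = 0.1).

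**Figure D3:**
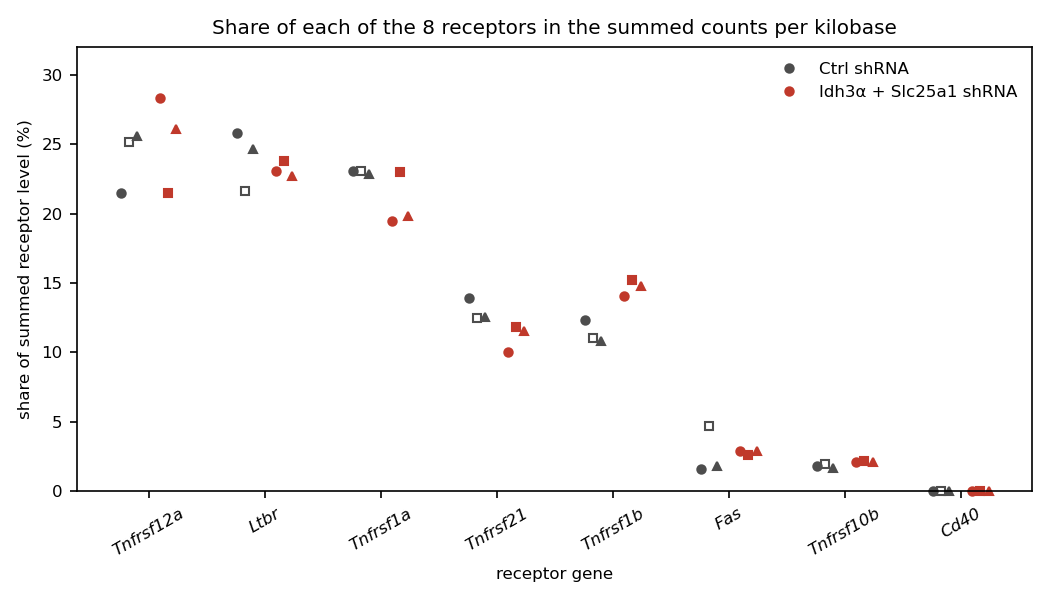
Share of each receptor in the summed counts per kilobase of the 8 receptors, in percent (y axis), per sample. Open points are Ctrl shRNA replicate 2. *Tnfrsf1b* moves from 10.8% to 12.3% in the controls to 14.0% to 15.2% in the knockdown samples, and *Tnfrsf21* lies lower in each knockdown sample.

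Genes whose pattern over the 6 samples was most like that of a member were found by Pearson's r of log2 CPM among 15306 other genes, as a description over samples that share 2 groups and one outlying library. For *Tnfrsf1b* these were *Aplnr* (r = 0.998), *Itga3* (r = 0.997) and *Cad* (r = 0.997), and for *Tnfrsf10b* they were *Atad3a* (r = 1.00), *Xpo5* (r = 0.996) and *Noa1* (r = 0.996). For *Fas* they were *Ncoa7* (r = 0.993), *Krr1* (r = 0.988) and *Gm25117* (r = 0.980). Without Ctrl shRNA replicate 2 these 9 r values ranged from 0.984 to 1.00. For 4 other members the leading genes were *Spry2* for *Ltbr*, *Lap3* for *Tnfrsf12a*, *Gm2451* for *Tnfrsf1a* and *Tm7sf2* for *Tradd*, with r from 0.978 to 0.998. Over all pairs of tested members, r ran from -0.849 (*Tnfrsf21* and *Fas*) to 0.958 (*Tnfrsf1b* and *Tnfrsf10b*), and the same pairs were the lowest and the highest without Ctrl shRNA replicate 2, at -0.930 and 0.995.

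The mRNAs of TNF superfamily ligands ran from 0 counts to 4.21 RPKM in the controls. Of 18 TNF superfamily ligands, 9 passed the count filter, and the highest per length in the controls were *Tnfsf12* (4.21 RPKM), which encodes TWEAK, the ligand of Fn14, then *Tnfsf9* (3.31 RPKM) and *Tnfsf13* (1.91 RPKM). Without Ctrl shRNA replicate 2 the control mean of *Tnfsf9* was 1.76 RPKM, below *Tnfsf13* at 2.02 RPKM. Of the ligands of other members, *Ltb* (lymphotoxin β) had 147 counts and *Tnfsf10* (TRAIL) 120 counts over all samples, and both were tested. Over all 6 samples *Fasl* had 2 counts, *Tnf* 6 counts and *Lta* 13 counts, and *Cd40lg* had 0 counts (these 4, *Ltb* and *Tnfsf10* were named after their values were seen, as ligands of members). Thus *Fas* had at least 312 counts in every library and *Tnfrsf1a* at least 3872, while the mRNAs of their ligands *Fasl*, *Tnf* and *Lta* were close to undetected. edgeR called 0 ligands in either direction in both sets of samples. DESeq2 called 0 but gave an adjusted p for 4 of the 9 with all samples and 3 without Ctrl shRNA replicate 2, limma on log2(FPKM + 1) called 0 of the 3 it tested, while limma with sample quality weights called 2 higher (all genes, 8.67%), and at an unadjusted p under 0.05 edgeR gave 1 higher and 0 lower of 9 in each set, near the 7.47% and 9.54% of all genes. *Tnfsf9*, the ligand of 4-1BB, resembled *Fas* in Ctrl shRNA replicate 2, at 8.25 CPM against 2.94 and 1.60 CPM in the other controls and 3.36 to 3.60 CPM in the knockdown samples.

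Of a list of 22 other TNF receptor superfamily genes, which also holds RELT-like genes such as *Rell1*, 17 were tested. They were led per length by *Rell1* (13.1 RPKM in the controls), *Tnfrsf25* (4.99 RPKM), which encodes the death receptor DR3, and *Tnfrsf14* (1.93 RPKM), which encodes HVEM. Without Ctrl shRNA replicate 2 the control mean of *Tnfrsf14* was 1.88 RPKM, below *Tnfrsf4* at 1.97 RPKM. *Rell1*, *Tnfrsf25* and *Tnfrsf14* were all below *Tradd*, and *Tnfrsf11b* and *Tnfrsf13b* had 0 counts in every sample. edgeR called 0 of them in both sets of samples (2 higher and 1 lower at an unadjusted p under 0.05 with all samples, beside 7.47% and 6.65% of all genes, and 2 and 2 without Ctrl shRNA replicate 2, beside 9.54% and 10.3%). DESeq2 called 0 but gave an adjusted p for 7 of the 17 with all samples and 5 without Ctrl shRNA replicate 2, limma on log2(FPKM + 1) called 0 of the 6 it tested, and limma with sample quality weights called 3 higher and 1 lower (all genes, 8.67% and 6.34%). The median log2 fold change of the 17 tested genes was 0.36 with all samples and 0.26 without Ctrl shRNA replicate 2, beside -0.01 and -0.02 over all genes, with 12 and 11 of 17 values positive. Those ranked after *Tnfrsf14* had under 1.93 RPKM in the controls, and the lowest total of a tested gene was 66 counts over all samples. The part of these low counts in the median was not tested.

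The receptor-proximal adaptors and enzymes were 28 genes, all tested, and the highest per length were *Tab2* (27.4 RPKM in the controls), *Rbck1* (25.03 RPKM) and *Casp8* (20.3 RPKM), which encode a TAK1 adaptor, the LUBAC subunit HOIL-1 and the initiator caspase of death receptors. *Casp8* measured 58.0, 64.0 and 54.0 CPM in Ctrl shRNA cells and 55.1, 60.9 and 52.7 CPM after knockdown, overlapping, with a log2 fold change of -0.06 (adjusted p = 0.765, and 0.982 without Ctrl shRNA replicate 2, edgeR with Benjamini-Hochberg adjustment). edgeR called 0 of the 28 in both sets of samples (6 higher and 0 lower at an unadjusted p under 0.05 with all samples, 6 and 1 without Ctrl shRNA replicate 2). DESeq2 called 1 higher in each set, *Birc3*, which encodes the ubiquitin ligase cIAP2, among 25 with an adjusted p, limma on log2(FPKM + 1) called 0 of the 24 it tested, and limma with sample quality weights called 7 higher. Among all genes 7.47% were higher and 6.65% lower at an unadjusted p under 0.05 with all samples, and 9.54% and 10.3% without Ctrl shRNA replicate 2. Of all genes DESeq2 called 2.20% and 4.74% higher in the respective sets, and the fit with weights 8.67%. The median log2 fold change of the 28 genes was 0.12, and 0.04 without Ctrl shRNA replicate 2.

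Receptor ectodomains can be released from the surface by the proteases ADAM10 and ADAM17, and TIMP3 inhibits this. *Adam10* (71.4 RPKM in the controls), *Timp3* (24.97 RPKM) and *Adam17* (16.7 RPKM) were the most abundant of 7 shedding genes. *Adam17*, the main sheddase of both TNF receptors, measured 126, 110 and 121 CPM in Ctrl shRNA cells and 125, 124 and 122 CPM after knockdown, and the groups overlapped. edgeR called 0 of the 7 in both sets of samples. At an unadjusted p under 0.05, 4 were higher and 0 lower with all samples, and 3 and 1 without Ctrl shRNA replicate 2 (all genes lower, 6.65% and 10.3%). DESeq2 called 1 higher with all samples (*Rhbdf2*) and 2 without Ctrl shRNA replicate 2 (*Rhbdf2* and *Erap1*), limma on log2(FPKM + 1) called 0, and limma with sample quality weights called 4 higher, beside 2.20%, 4.74% and 8.67% of all genes called higher by DESeq2 with all samples, by DESeq2 without Ctrl shRNA replicate 2 and with weights, and 7.47% and 9.54% at an unadjusted p in the respective edgeR fits. *Rhbdf2* encodes iRhom2, which carries ADAM17 to the surface. The median log2 fold change of the list was 0.22, and 0.15 without Ctrl shRNA replicate 2.

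Downstream of the receptors, 10 genes of NF-κB feedback were set beside the members, a list whose direction was known from earlier results on these samples and which is no independent evidence of it. Of these, 4 rose with all samples (*Nfkbia*, *Nfkbie*, *Nfkbiz* and *Tnfaip3*) and 7 without Ctrl shRNA replicate 2, with *Nfkb2*, *Relb* and *Bcl3* added (edgeR with Benjamini-Hochberg adjustment), beside 0.0588% and 1.11% of all genes called higher. DESeq2 called 9 of the 10 in both sets, *Nfkb1* being the exception, beside 2.20% and 4.74% of all genes, limma with sample quality weights called 9 (8.67%) and limma on log2(FPKM + 1) called 3 (0.0664%). Their median log2 fold change was 0.84 with all samples and 0.81 without that library, beside medians of 0.12 and 0.06 for the members. *Nfkb2* (62.1 RPKM) and *Nfkbia* (51.8 RPKM) were the most abundant in the controls, between *Tnfrsf1a* and *Tnfrsf21*, followed by *Tnip1* (21.9 RPKM), which encodes an A20-binding protein. *Tnip1* had a log2 fold change of 0.56 with all samples and 0.45 without Ctrl shRNA replicate 2 (adjusted p = 0.256 and 0.0786, edgeR with Benjamini-Hochberg adjustment). DESeq2 called *Tnip1* in both sets (adjusted p = 0.0389 and 0.00275, Benjamini-Hochberg), values that may be too small, as for *Tnfrsf10b*.

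**Figure D4:**
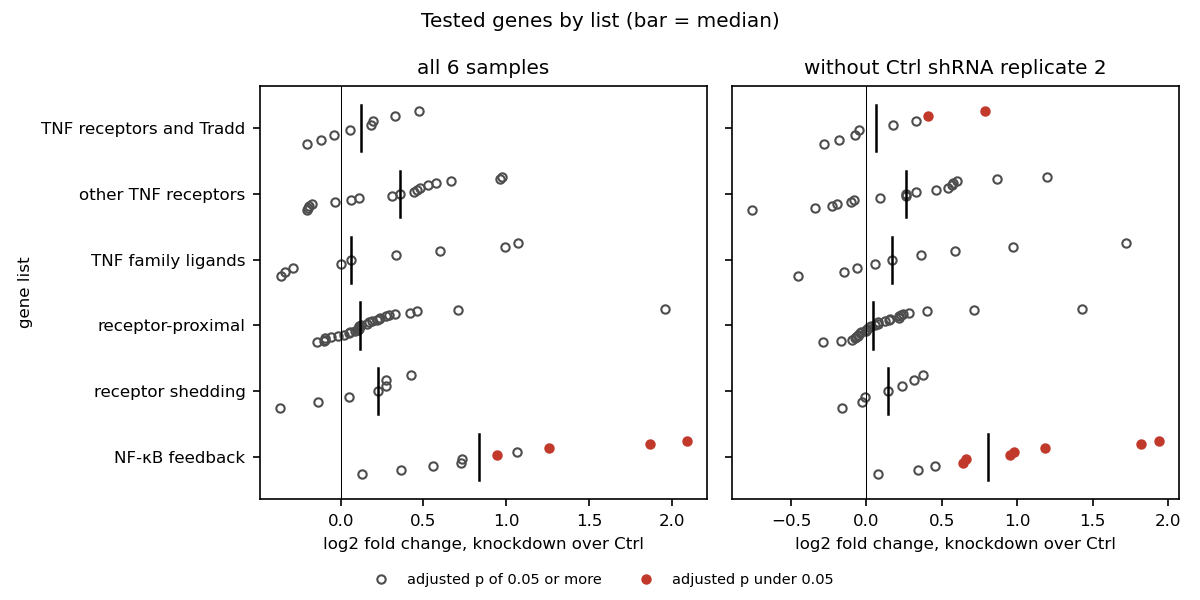
Log2 fold change of knockdown over Ctrl shRNA (x axis) of every tested gene in 6 lists (y axis), with all samples (left) and without Ctrl shRNA replicate 2 (right). Points are genes, filled where edgeR's adjusted p was under 0.05, and bars are medians, which lie at 0.12 for the receptors and *Tradd* and at 0.84 for NF-κB feedback genes with all samples.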

How the data were processed

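MLE12 libraries numbered 6, with 3 per group by the sample labels. Deposited by the authors were raw counts per gene as whole numbers, gene lengths, and FPKM values, which they scaled by gene length and library size. The submitters' processing notes name HISAT2 2.0.5, StringTie 1.3.3b, featureCounts 1.5.0-p3 and mm10 (GRCm38). The strand setting of the counting is not given in the sources used here, so reads of overlapping genes on opposite strands could not be told apart. All sample columns were used.

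The filterByExpr function of edgeR removed genes with low counts, libraries were scaled by TMM, and genes were tested over the whole table with the two-sided quasi-likelihood test of edgeR 4.0.16 (R 4.3.3), with no covariate and Benjamini-Hochberg adjustment, at an adjusted p of 0.05. CPM and RPKM use the same factors. The same fit was run without Ctrl shRNA replicate 2. Alternatives were median-of-ratios (RLE) factors, library size only, all genes with a count, genes with 10 or more counts in each library, DESeq2 1.42.0, limma 3.58.1 on log2(FPKM + 1) or log2(FPKM + 0.1) with FPKM of at least 1 in 3 samples, limma with sample quality weights, the replicate number as a block, and each library left out in turn. The edgeR, DESeq2 and limma fits were tested on simulated data, with the same spread of a gene in every library. At the spread of all libraries, edgeR and both limma fits missed most changed genes of the simulation. No simulated library stood apart as Ctrl shRNA replicate 2 does, so this cannot show what the sample weights detect in the real samples. The share of false calls was above the threshold for DESeq2 in both sets of samples and for edgeR without Ctrl shRNA replicate 2. A count of 0 was taken to allow 3 counts. Figures were drawn with matplotlib 3.10.9 in Python 3.11.15.

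The members, lists, tests and alternatives were chosen with earlier results of these data known. All members are named, and of each other list the genes past the threshold with or without Ctrl shRNA replicate 2 and the 3 with the highest level per length in Ctrl shRNA, together with *Idh3a*, *Slc25a1* and the 3 genes most like each member, of which only the leading one is named for 4 members. Some items are not reported here. Genes called by DESeq2 alone, *Epcam*, *Cdh1*, *Nfkb1*, *Tnfrsf4*, receptors and markers at or near 0 counts and the ligands *Fasl*, *Tnf*, *Lta*, *Cd40lg*, *Ltb* and *Tnfsf10* were named after their values were seen. Replicates differed by more than sampling noise in every pair (chi-square per degree of freedom 23.4 to 454 between controls and 5.67 to 16.2 between knockdown samples), and each was counted as 1 sample.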

Additional observations from a re-analysis of the deposited data

How the results depend on the processing

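With all samples, 0 members were called higher by edgeR (2 at an unadjusted p under 0.05). DESeq2 called 2 and limma with sample quality weights called 3, and leaving out 1 library gave 0 to 2, the 2 coming without Ctrl shRNA replicate 2. Members called lower were 0 with edgeR (0 at an unadjusted p under 0.05), 1 with sample quality weights and 0 in each fit that left out 1 library. Without Ctrl shRNA replicate 2, the 2 members called higher became 3 with DESeq2. Of 120 values of single members under an alternative, 105 kept direction and side of the threshold, 8 passed it and 7 turned sign. With library size only, *Tnfrsf1a* was at 0.13 and *Tnfrsf21* at 0.042 on the log2 scale, while the median of all genes moved to 0.16, and relative to that median they were at -0.03 and -0.12. When 1 library was left out, *Tnfrsf1a* ran from -0.098 (without knockdown replicate 2) to 0.013 (without knockdown replicate 3), *Fas* from -0.054 (without Ctrl shRNA replicate 1) to 0.79 (without Ctrl shRNA replicate 2) and *Ltbr* from -0.050 (without Ctrl shRNA replicate 2) to 0.13, and *Ltbr* was at -0.0037 with sample quality weights. Receptors whose shares did not overlap numbered 3 with all samples and 3 to 5 when 1 library was left out. The cause of these differences was not tested.

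Over the whole table, edgeR called 9 genes higher and 1 lower. The numbers were 1 and 0 with library size only, 12 and 3 with no count filter, 8 and 3 with limma on either FPKM scale, 265 and 192 with DESeq2, and 1327 and 971 with sample quality weights. They were 175 and 106 without Ctrl shRNA replicate 2, 1 and 0 without Ctrl shRNA replicate 1, and 0 and 0 without any other library.

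The groups share replicate numbers, but same-numbered samples did not deviate together (r = -0.141, -0.0731 and 0.0482 for numbers 1, 2 and 3), so the numbers were not taken as pairs. With the replicate number as a block, 0 members were called higher and 0 lower, and 0 genes were called over the whole table. The biological coefficient of variation over all 6 libraries was 0.263, falling to 0.102 without Ctrl shRNA replicate 2, and this spread limits what 3 samples per group can detect, and *Cd40* was at the detection floor.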
